A study of Mus musculus with 6 samples.

Results

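Ahi1, the Abelson helper integration site 1 gene, was 1 of 7507 genes with a count in the RNA table of the BALI-Multiome experiment on adult mouse hippocampus. It was chosen by measured values, because it held one of the largest shares of the transcripts counted in these libraries while being known as a gene of the primary cilium. Its share of the counts and its rank are therefore given as a description, without a test. BALI (Barcoding by Activated Linkage of Indexes) writes a barcode onto molecules inside a tissue section with light, so that only molecules from illuminated areas carry that barcode. Here 3 fresh frozen coronal sections of untreated adult mouse brain, cut at 10 µm, were used, and in each section the granular layer of the dentate gyrus (DG) and the CA1 field received a separate barcode of 4 digits. Each section gave 1 DG and 1 CA1 RNA library, 6 in all. Chromatin in the same sections was first cut with Tn5, after which RNA was copied in place from an oligo-dT primer. The chromatin libraries are not analysed here. The labels give an age of 12 weeks and the husbandry text 8 to 12 months, neither strain nor sex is given in the sources used here, and nothing in the labels says whether the 3 sections came from separate animals, so p-values measure the spread between these sections only.

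Ahi1 encodes jouberin, a protein with WD40 repeats and an SH3 domain that sits at the basal body and the transition zone, the gate at the base of the primary cilium. The primary cilium is a single antenna-like organelle on most neurons and glia, in which Hedgehog and several neuropeptide and monoamine receptors signal. Loss of AHI1 in people causes Joubert syndrome, a ciliopathy of the cerebellum and brainstem. The protein is also abundant in the cytoplasm of neurons, where it binds the huntingtin-associated protein HAP1 and acts in vesicle and receptor trafficking.

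On the mouse assembly GRCm38.p6 (mm10), RefSeq places Ahi1 at chr10:20952232-21080429 on the plus strand, a span of 128198 bases with 5665 exonic bases. It has 3 curated mRNAs with a common 3′ end. The longest has 24 exons and encodes 1047 residues, the next skips 1 exon and encodes 1038 residues, and the shortest starts downstream at base 21040820, has 7 exons and encodes 142 residues. All 3 hold the same 1343 bases after the stop codon. The noncoding gene Gm20149 lies antisense within the locus at chr10:21034304-21044121, shares 0 exonic bases with Ahi1 and is outside the listed genes. The table gives 1 value per gene, so the 3 mRNAs cannot be told apart, and reads were assigned without regard to strand.

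**Figure D1:**
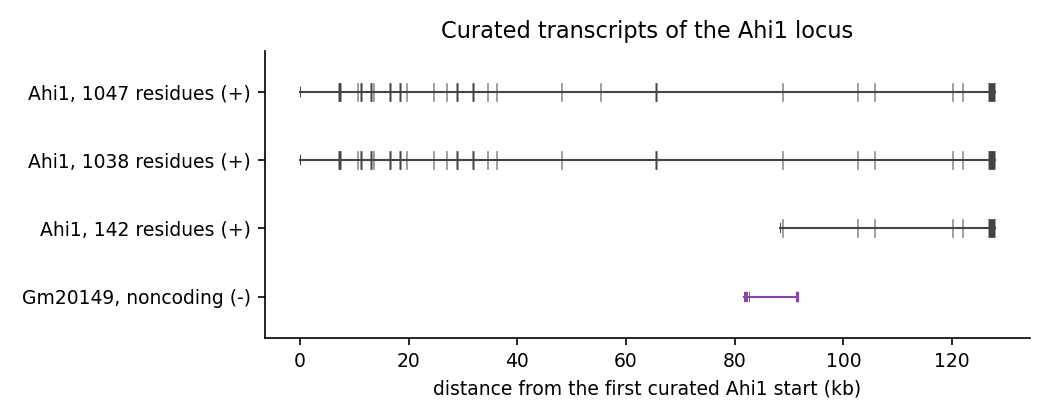
Exons of the 3 curated Ahi1 mRNAs and of the antisense noncoding gene Gm20149, in kilobases from the first curated Ahi1 start; thick boxes are exons with coding sequence, thin boxes exons without. The mRNA of 142 residues starts within the last part of the locus and shares its final exon with the mRNAs of 1047 and 1038 residues, and no Gm20149 exon overlaps an Ahi1 exon.

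One sequence feature of the locus is shown because it links Ahi1 to other genes of the cilium. Regulatory factor X (RFX) proteins, which drive many ciliary genes, bind the X-box, an inverted repeat. The 30 bases of the plus strand at chr10:20952560-20952589, in the first exon of the long Ahi1 mRNAs and ahead of the start codon, hold such a repeat in capitals.

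Ahi1 X-box: tagtctgaGTTACCTAGGCAACagcggcag

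The capitals mark GTTNCC and GGNAAC separated by 2 bases, at bases 22 to 35 after the transcript start. The pair reads the same on either strand, and spacers of 0 to 3 bases were accepted. In a window of 250 bases before to 50 after the start, the repeat occurred at 253 of 27025 genes with a RefSeq window (0.936%) and at 60 of the 5666 listed genes with one (1.06%). It occurred at 5 of 37 transition zone and Joubert syndrome genes (13.5%), namely Ahi1, Tctn1, Tctn3, Mks1 and Cep41, at 4 of 39 genes of intraflagellar transport and the BBSome (10.3%), namely Ift57, Ttc26, Bbs7 and Lztfl1, and at 2 of 21 markers of motile cilia (9.52%), namely Pifo and 1110017D15Rik. None of 20 receptors and signalling genes of the neuronal cilium, 32 basal body and centriole genes or 8 genes of proteins linked to AHI1 held it. The window of the short Ahi1 mRNA did not hold these letters. The search was made after the Ahi1 window had been read, and a match of letters is a description, not a binding site.

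Unique molecular identifiers (UMIs, random tags that mark single cDNA molecules) were the unit of measurement. The deposited counts hold 1 more than the UMIs of every gene in every library, and this added count was taken off. The libraries then held 2844 to 17999 UMIs, and within a section DG had 1.29 to 1.92 times the UMIs of CA1. A total of 394 genes had a UMI in all 6 libraries, Ahi1 among them. The tissue check was limited by this depth. Listed excitatory neuron markers were detected at 1.73% to 2.14% of the UMIs, oligodendrocyte markers at 0.503% to 0.994% and astrocyte markers at 0.214% to 0.349%. Markers of DG granule neurons, 7 of 10 of them listed, summed to 26 UMIs in DG and 12 in CA1, with mean shares of 0.0713% ± 0.0427 and 0.0754% ± 0.0709 (SD, n = 3), and those of CA1 pyramidal neurons, 9 of 10 listed, to 12 and 16 UMIs, with mean shares of 0.0509% ± 0.0317 and 0.0783% ± 0.0413 (SD, n = 3). The granule neuron markers Prox1 and C1ql2 are outside the listed genes. Single markers had few UMIs and were mixed: the granule neuron marker Synpr had 6 in DG and 0 in CA1, and the CA1 markers Wfs1, Neurod6 and Mpped1 had 0, 0 and 1 in DG and 2, 2 and 3 in CA1. The granule neuron markers C1ql3 and Calb1 went the other way, with 0 UMIs in DG and 2 in CA1 each. So did the CA1 markers Fibcd1 and Galntl6, with 1 in DG and 0 in CA1 each. The summed shares of both lists overlapped between the DG and the CA1 libraries, with the CA1 list higher in CA1 in 2 of 3 sections and the granule list higher in DG in 2 of 3.

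Ahi1 was counted in every library. In the DG libraries of sections 1, 2 and 3 it had 66, 17 and 30 UMIs, which is 0.367%, 0.372% and 0.476% of the library's UMIs. In the CA1 libraries it had 35, 15 and 32 UMIs, or 0.374%, 0.527% and 0.658%. The shares of the 6 libraries thus spanned less than a doubling, with the lowest in the DG of section 1 and the highest in the CA1 of section 3. The exact 95% binomial interval was narrowest in the deepest library, DG of section 1, at 0.284% to 0.466%, and widest in the shallowest, CA1 of section 2, at 0.295% to 0.868%. The intervals overlapped in 15 of 15 pairs of libraries. The SD between libraries was 0.116 percentage points, against 0.0879 for counting alone at these depths. Intervals cover counting error only, since a UMI of 6 bases has 4096 forms and molecules that share one are merged. A correction for such mergers raised the largest count, 66 UMIs, to 66.5.

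**Figure D2:**
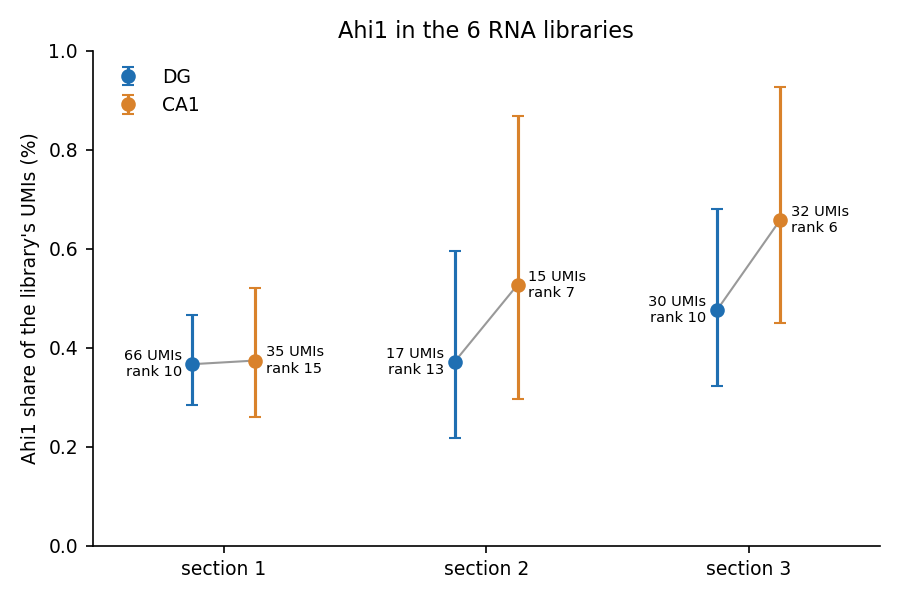
Share of each library's UMIs that belonged to Ahi1 (y axis, percent) in the DG (blue) and CA1 (orange) libraries of the 3 sections, with exact 95% binomial intervals as bars and grey lines joining the libraries of a section; each point carries its UMI count and its rank. The intervals of all 6 libraries overlap, and the CA1 point lies above the DG point in every section.

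Over the 6 libraries the mean share was 0.462% ± 0.116 (SD, n = 6), which placed Ahi1 at rank 8 of 7507 genes, within the top 0.107%. Its rank within single libraries was 10, 13 and 10 in DG and 15, 7 and 6 in CA1, with ties of 1 or 2 genes in 4 of the libraries. From the DG libraries alone the mean share ranked 10, and from the CA1 libraries alone 7. The rank rested in part on section 3: without it Ahi1 fell to rank 13, whereas without section 1 or 2 it was at 8.

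The genes above Ahi1 in every library were Malat1, Meg3, Rn45s and Fth1, of which the first 2 are long noncoding RNAs that stay in the nucleus, Rn45s is ribosomal precursor RNA and Fth1 encodes ferritin heavy chain. Next in the order of mean share came Grin2b, an NMDA receptor subunit, at 0.691%, and Snhg11, a neuronal noncoding RNA, at 0.590%. The difference from Ahi1 was 0.229 ± 0.222 percentage points for Grin2b and 0.128 ± 0.144 for Snhg11 (SD over 6 libraries). Both were above Ahi1 in 5 of 6 libraries, and for Snhg11 the difference was smaller than its SD.

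Close below it were Gria2, an AMPA receptor subunit, at 0.451%, and Syt11, a synaptotagmin, at 0.426%. Both differed from Ahi1 by less than the SD of the difference. Gria2 exceeded Ahi1 in 4 of 6 libraries despite its lower mean, because its share in the CA1 of section 3 was 0.226% where that of Ahi1 was 0.658%. The order of Snhg11, Ahi1, Gria2 and Syt11 thus changed between libraries, and it was not tested. Arpp21, Mycbp2, Ank3 and Kcnq1ot1, at ranks 17 to 20, were below Ahi1 in 6 of 6 libraries.

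**Figure D3:**
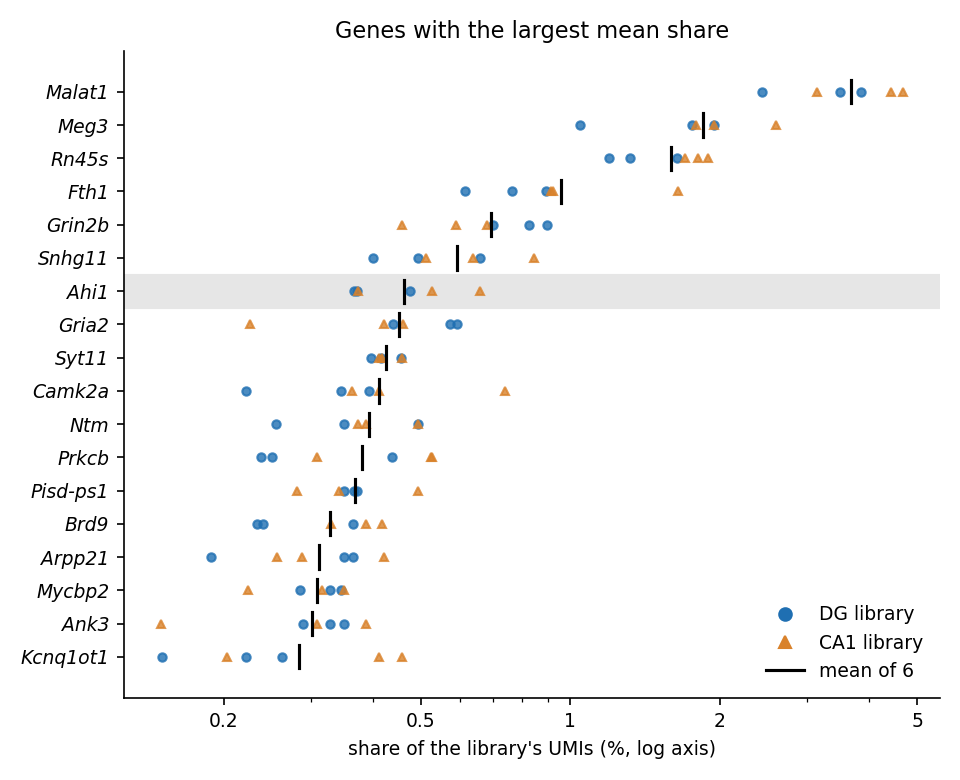
Share of the library's UMIs (x axis, percent, log scale) of 18 of the 20 genes with the largest mean share, in DG libraries (blue circles) and CA1 libraries (orange triangles), with the mean of the 6 as a black line. Ahi1, shaded, is at rank 8 with a mean of 0.462%, and its points overlap those of Grin2b at rank 5, Snhg11 at 6, Gria2 at 9 and Syt11 at 11.

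UMIs mark single cDNA molecules and were counted per gene without a correction for transcript length. An effect of length on these counts was not tested. As a description only, the shares were also divided by the exonic length of each gene, which the annotation gave for 7479 genes. On this scale Ahi1 stood at 0.0816% of the UMIs per kilobase of exon, rank 34 of 7479. Snhg11 (0.0965% per kilobase) and Syt11 (0.0841%) were above it. Gria2 and Grin2b, whose exons are longer, were below it at 0.0293% and 0.0278% per kilobase. Ahi1 thus stayed among the first 0.455% of genes per length, but the order against its neighbours changed.

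Other genes of the cilium were counted far less often than Ahi1. The lists of transition zone and Joubert syndrome genes, of intraflagellar transport, motors and BBSome, of ciliary receptors and signalling, and of the basal body, centriole and RFX factors name 145 genes besides Ahi1, of which 83 are among the listed genes. For scale, 5666 of the 27025 genes with a RefSeq window were listed. Those 83 genes had 313 UMIs over the 6 libraries, with a median of 2 each, against a median of 3 over all 7507 genes, and 59 of them had at most 3 UMIs. Ahi1 had 195, which is 6.5 times the count of the next highest and 38.4% of the UMIs of all these genes with it included. In single libraries it made up 34.7% to 46.4% of them and had 3.4 to 6.4 times the UMIs of the highest other member. As Ahi1 was selected on its count, this contrast is a description of the table and not a test.

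**Figure D4:**
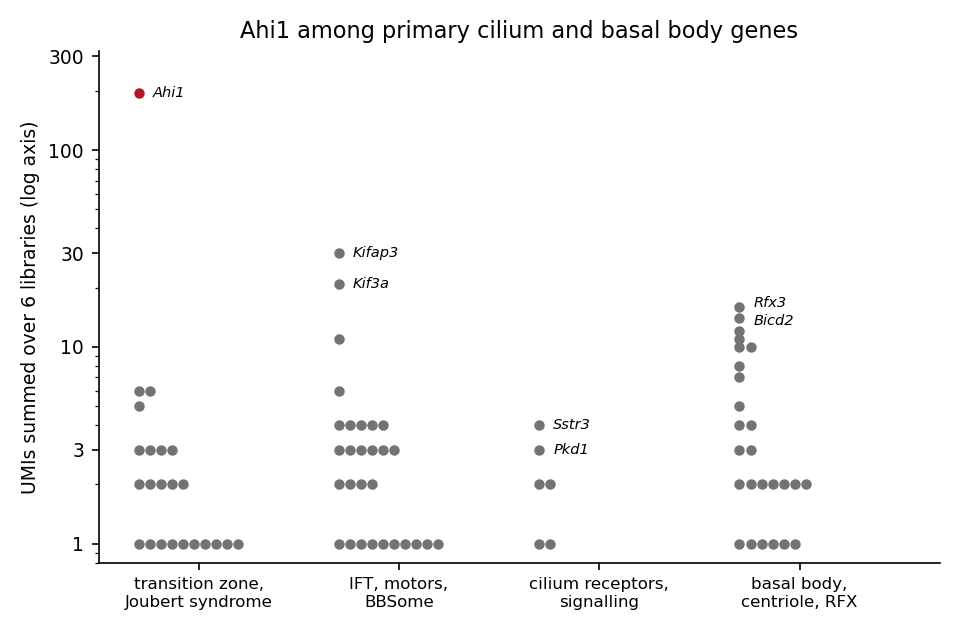
UMIs summed over the 6 libraries (y axis, log scale) of the listed members of 4 lists of primary cilium and basal body genes; each point is a gene, points at the same count are set side by side, and the members with the most UMIs are named. Ahi1 (red, 195 UMIs) stands above Kifap3, the next highest, with 30 UMIs, and 59 of the other 83 genes are at 3 UMIs or fewer.

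In its own compartment Ahi1 was the only gene with a UMI in every library. Of 43 transition zone and Joubert syndrome genes 23 were listed, and the 22 besides Ahi1 had 49 UMIs together. Ahi1 made up 79.9% of the list, and between 65.4% and 89.7% of it in single libraries. Cep290, a large scaffold of the transition zone, and Cspp1, a centrosome and spindle pole protein, had 6 UMIs each. Cplane1, which acts in ciliogenesis and planar polarity and is listed as 2410089E03Rik, had 5. Nphp4, Togaram1 (listed as Fam179b) and Cby1, had 3 each. Arl13b, the small GTPase often used to stain cilia, had 2. At these counts no level in DG could be set against one in CA1.

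The transport machinery was better covered than the transition zone genes besides Ahi1, with 29 of 44 members listed and 124 UMIs. Kifap3, the accessory subunit of the kinesin-2 motor, had 14, 2 and 7 UMIs in DG and 4, 3 and 0 in CA1. Kif3a, a motor subunit of the same complex, had 4, 0 and 2 UMIs in DG and 6, 4 and 5 in CA1. Kif3a had the larger share in CA1 in 3 of 3 sections and Kifap3 in section 2 only. Neither gene passed the filter on low counts. In edgeR without that filter, Kif3a had a log2 fold change, DG over CA1, of -1.81 with an unadjusted p of 0.0428 and an adjusted p of 0.663, and Kifap3 one of 1.11 with an adjusted p of 0.663. Over the 7507 genes of that fit the median log2 fold change was 0.461, and 127 genes had an unadjusted p below 0.05. Dync2h1, the heavy chain of the dynein that returns cargo from the ciliary tip, had 11 UMIs, 9 of them in DG, and Ift81, a tubulin-binding transport protein, had 6, all in CA1. The summed share of this group was 0.230% ± 0.0665 in DG and 0.323% ± 0.0481 in CA1 (SD, n = 3). It was lower in DG in 3 of 3 sections, but nearly equal in section 1, at 0.2667% against 0.2672%.

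Of 24 receptors and signalling genes of the neuronal cilium 6 were listed, with 13 UMIs. This was near the listed share of all genes, 5666 of 27025 with a RefSeq window. The somatostatin receptor Sstr3, which is targeted to cilia, had 4 UMIs, the polycystin Pkd1 3, and the serotonin receptor Htr6 and the Hedgehog effector Gli3 2 each. Of 35 basal body, centriole and RFX genes 26 were listed, with 127 UMIs. The transcription factor Rfx3, also used as a marker of granule neurons, led them with 9 UMIs in DG and 7 in CA1. The dynein adaptor Bicd2 followed with 14, the kinase Ttbk2, which starts ciliogenesis at the mother centriole, with 12, and the centriolar satellite scaffold Pcm1 with 11. The 83 genes together held 0.707% ± 0.0833 of the UMIs in DG and 0.713% ± 0.0635 in CA1 (SD, n = 3), lower in DG in 2 of 3 sections. Their log2 ratios of DG to CA1 were -0.031, -0.077 and 0.062 in sections 1, 2 and 3. Those of Ahi1 were -0.029, -0.504 and -0.466, and a difference between Ahi1 and these genes was not tested.

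Genes linked in earlier work to AHI1, or to it through HAP1, also had fewer UMIs. Of 9, 6 were listed, with 78 UMIs. Kalrn, a guanine nucleotide exchange factor of dendritic spines, had 27 UMIs, the BDNF receptor Ntrk2 had 19, Htt, which encodes huntingtin, 16, and Ctnnb1, which encodes beta-catenin, 7. Hap1, whose protein holds AHI1 in the neuronal cytoplasm, had 5. Rab8a and Cend1 are outside the listed genes. Markers of motile cilia, which beat on the ependymal cells that line the ventricles, had few UMIs. Of 25 markers 5 were listed, near the listed share of all genes, 5666 of 27025 with a RefSeq window. They had 6 UMIs in all, a share of 0% to 0.0411% per library, and the defining factor Foxj1 is outside the listed genes. Choroid plexus markers summed to 13 UMIs, 0% to 0.0617% per library.

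The 2 regions were compared section by section. The ratio of the Ahi1 share in DG to that in CA1 was 0.980, 0.705 and 0.724 in sections 1, 2 and 3. On library totals it was below 1 in 3 of 3 sections, though by less than the counting error in each: Fisher's exact test of the libraries of a section, two-sided, gave p = 0.917, 0.363 and 0.202, and 0.917, 0.545 and 0.545 after Benjamini-Hochberg adjustment over the 3 sections. In section 1 the direction depended on that base. Scaling by edgeR's TMM factors, 0.928 for DG and 1.01 for CA1, put the ratio of section 1 above 1. The 95% intervals of the odds ratio were 0.641 to 1.52, 0.330 to 1.52 and 0.424 to 1.23, so a modest change in either direction was not detectable at this depth. The Fisher test compares the libraries, not the regions.

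Across sections the mean share was 0.405% ± 0.0619 in DG and 0.520% ± 0.142 in CA1 (SD, n = 3 each). The mean log2 ratio of DG to CA1 was -0.33 ± 0.26 (SD, n = 3), a fold of 0.794. An exact permutation test over the 6 libraries, two-sided, gave p = 0.2, where 0.1 is the smallest p this test allows. It ignores that the libraries are paired by section. The exact permutation test with labels swapped within sections keeps the pairs and gave p = 0.25, its smallest possible value. No difference could have reached 0.05 in either test. The shares of the regions overlapped, with the highest in DG (0.476%) above the lowest in CA1 (0.374%). On library totals, a lean toward CA1 in 3 of 3 sections was also common: of 47 genes with at least 5 UMIs in each library, 16 (34.0%) were lower in DG in every section and 4 were higher. In these bulk libraries fewer cells that express a gene and less RNA per cell cannot be told apart. Oligodendrocyte markers were lower in DG in 3 of 3 sections as well, at 0.682% ± 0.160 against 0.814% ± 0.165 (SD, n = 3), and their part in the result was not tested.

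In the fit across genes, edgeR's quasi-likelihood test on the UMIs, 43 genes passed the filter on low counts and 0 (0%) passed an adjusted p of 0.05, while 3 had an unadjusted p below 0.05. DESeq2 called 0 of the same genes and had 0 at an unadjusted p below 0.05. Ahi1 was the 1 member of the cilium lists that was tested. Its log2 fold change, DG over CA1, was -0.20 with a standard error of 0.27, a 95% interval of -0.74 to 0.34 and an adjusted p of 0.875 in edgeR. A total of 12 of the 43 genes had a lower value, and the median over the 43 was -0.022.

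The fitted fold change moved most when 1 of the CA1 libraries was left out, and the ratio of shares with the added count. Without the CA1 library of section 1 the edgeR log2 fold change was -0.40 (adjusted p = 0.797). Without the CA1 library of section 3, which had the highest Ahi1 share, the edgeR log2 fold change was 0.0012 (adjusted p = 0.997), while the mean log2 ratio of shares was -0.14. In the counts as deposited, with the added 1 in place, the edgeR log2 fold change was -0.21, close to its value on the UMIs. The section ratios of shares, which take the whole library total as their base, were 1.23, 0.964 and 0.842 in those counts. Their mean log2 was -0.00061 ± 0.277 (SD, n = 3), and the mean CPM (counts scaled to a library total of 1000000) was 2121 ± 578 in DG and 2116 ± 561 in CA1. Added counts made up 29.4% to 72.5% of a library's deposited total, most in the shallowest libraries, and the CA1 library was the shallower in every section. The addition lowered the mean Ahi1 share from 0.462% to 0.212%.

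**Figure D5:**
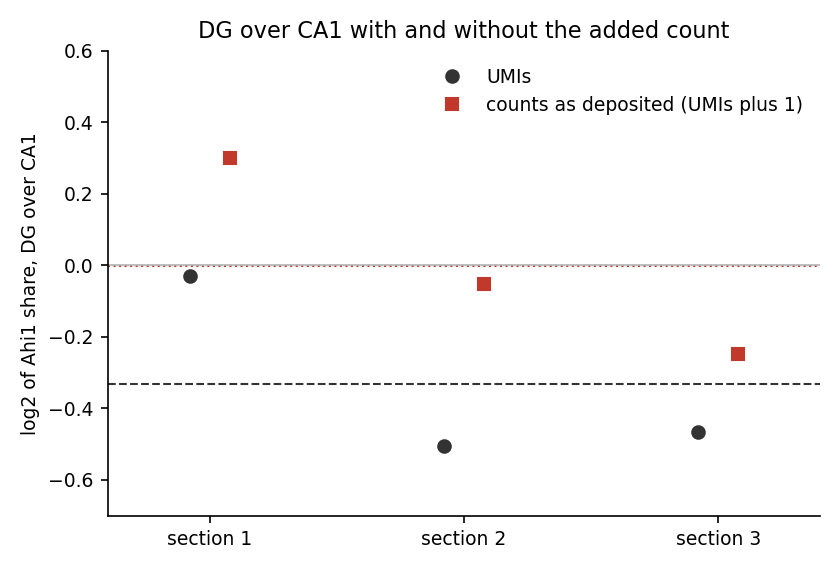
Log2 ratio of the Ahi1 share in DG over CA1 (y axis) in the 3 sections, from UMIs (black circles, mean as a dashed line) and from the counts as deposited (red squares, mean as a dotted line). From UMIs the 3 values are -0.03, -0.50 and -0.47, and each is lower than its value of 0.30, -0.05 or -0.25 from the deposited counts.

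The genes whose pattern over the 6 libraries was most like that of Ahi1 were sought among the other 46 with at least 5 UMIs in each, by the root mean square difference of log2 shares after removal of each gene's own mean. Malat1 was nearest at 0.189, followed by Son, a splicing scaffold of nuclear speckles, at 0.206 and Slc1a2, the glutamate transporter of astrocytes, at 0.210. The median over the 46 genes was 0.383 and the largest 0.740. Malat1 had 438, 160 and 243 UMIs in DG and 294, 133 and 216 in CA1, and like Ahi1 was lowest in share in the DG of section 1. Son had 31, 9 and 15 UMIs in DG and 21, 6 and 13 in CA1, and Slc1a2 had 24, 8 and 12 and 11, 5 and 10. The mean log2 ratio of DG to CA1 was -0.33 for Malat1, -0.22 for Son and 0.02 for Slc1a2. The 6 points of a gene share their libraries and depth with those of every other gene, so the likeness is a description.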

How the data were processed

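Per the labels and the study's methods, the authors extracted UMIs with UMI-tools, sorted reads into regions by the whole barcode or a fragment with positions 3 and 4 (cutadapt 4.1), mapped read 1 to mm10 (STAR 2.7.9a), assigned it to genes with featureCounts (Subread 2.0.3) and counted UMIs per gene. The authors deposited these counts with 1 added to every gene, which was taken off, and the row of totals was dropped. The authors' CPM and ratio columns, made from those counts, were not used. Ahi1, the gene lists and the named genes were chosen with earlier results of these data known. The named genes were the 3 neighbours on each side in mean share and the 3 most alike in pattern. The 4 members of each list with the most UMIs, ties included, were named too. Arl13b and the region markers given singly were added after their values were seen. Some of these genes are not reported here.

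DG was compared with CA1 in edgeR 4.0.16 (limma 3.58.1, R 4.3.3; TMM, filterByExpr with minimum count 10, adjusted p below 0.05) and in DESeq2 1.42.0. The edgeR fit was checked in 20 simulations, which assumed 1 spread between libraries and no effect of section. It called 48.1% of the tested genes changed 2-fold and 96.7% of those changed 4-fold. Simulations without change gave 3 calls in all. Many changes of 2-fold would thus be missed. Exact permutation and Fisher's tests used scipy 1.17.1 (Python 3.11.15, numpy 2.4.6, pandas 2.3.3). The tested genes held 16.4% to 22.3% of a library's UMIs. The libraries of a section share their tissue, and their deviations from the region means correlated at 0.533, 0.338 and 0.0403 over 43 genes in sections 1, 2 and 3. Exonic lengths and sequence came from RefSeq (GRCm38.p6), where 7479 of 7507 symbols matched. The 3 chromatin libraries were not used here.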

Additional observations from a re-analysis of the deposited data

How the results depend on the processing

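The count of genes called in DG against CA1 was 0 in 15 of 16 alternatives and 1 with a minimum count of 5, where Prkce, a protein kinase C gene, was called (115 genes tested; log2 fold change 2.29, adjusted p = 0.00292 in edgeR; 37, 8 and 6 UMIs in DG and 5, 0 and 1 in CA1). Leaving out a section or a library gave 0 calls each time. The edgeR log2 fold change of Ahi1 stayed below 0 in 15 of 16 alternatives and ran from -0.40 without the CA1 library of section 1 to 0.0012 without that of section 3, with adjusted p from 0.665 to 0.998. With section as a replicate block it was -0.14 (adjusted p = 0.899 in edgeR, 0 genes called). The mean log2 ratio of shares, -0.33, ran from -0.55 to -0.14 when a section or library was left out, was -0.22 with TMM scaling, and in the paired test, labels swapped within sections, had an exact permutation p = 0.25, the smallest possible. From the mean CPM of the deposited counts, an alternative chosen after seeing the data, it was 0.0034. The mean share was 0.212% in the deposited counts and 0.410% to 0.508% when a section or library was left out. The rank was 34 per kilobase of exon, and 8 to 13 when a section was left out. At a median of 2 UMIs per gene, depth prevented a comparison of the other cilium genes between regions.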
